A study of Mus musculus with 103 samples.

Results

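Glutamate receptors and the scaffold that holds them at excitatory synapses were followed as 40 genes, all of them found among the 48526 rows of a table of hippocampal transcript levels. The genes were taken as a list of names: 4 AMPA, 6 NMDA and 5 kainate receptor subunits, 6 metabotropic receptors, 2 AMPA receptor auxiliary subunits and 17 proteins of the postsynaptic density and its adhesion sites. Hippocampi of male mice on a C57BL/6J background had been flash frozen and sequenced as stranded poly(A) RNA, 1 library a mouse. Levels are given as TPM, transcript abundance scaled so that each library sums to 1000000, so a gene's level is relative to all other transcripts of that library and is set per transcript length. Read numbers per gene were not used here, so the depth behind a value is unknown and its precision was judged from the spread between mice.

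HO_TASTPM mice are homozygous for a mutant human APP transgene and for a second transgene, and 15 of them were analysed (4, 4, 4 and 3 at 2, 4, 8 and 18 months). HET_TASTPM mice are hemizygous for both transgenes, each carried on 1 chromosome of its pair only (16 mice, 4 at each age). TAS10 mice are hemizygous for the APP transgene alone (13 mice: 4, 2, 3 and 4 at the same ages). TAU mice carry P301L human tau driven by a promoter of forebrain excitatory neurons (14 mice: 4, 4, 4 and 2). Wild-type C57BL/6J mice, labelled WILD, were the controls (31 mice: 8, 8, 8 and 7). The APP transgene is driven by the promoter of Thy1, a gene of neurons, so the APP and tau transgenes are both driven by neuronal promoters. The line with the second transgene of TASTPM mice alone is not reported here.

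As background, glutamate released by one neuron opens AMPA receptors, which carry most of the fast current, and NMDA receptors, which admit calcium once the membrane is depolarized and start the changes in synaptic strength that the hippocampus is known for. Kainate receptors add slower currents, and metabotropic receptors act through G proteins on both sides of the synapse. Below the membrane, guanylate kinases such as PSD-95 (Dlg4) bind the receptors, SAPAP proteins (Dlgap genes) bind the guanylate kinases, Shank proteins bind the SAPAPs, and Homer proteins tie Shank to metabotropic receptors.

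RefSeq promoter sequences (GRCm38.p6) matched 28 of the 40 genes. The 250 bases before the transcription start are shown for Gria2, Grm3 and Grin1, because these genes were lower in TAU mice of 18 months, stand for an AMPA, a metabotropic and an NMDA receptor and have 1 window each in the table. All 3 lie on the minus strand, at chr3:80802836-80803085, chr5:9725353-9725602 and chr2:25319188-25319437, and are written 5′ to 3′ along the gene. Capitals mark a GC box (GGGCGG on either strand), the site that Sp1 family factors bind.
Gria2: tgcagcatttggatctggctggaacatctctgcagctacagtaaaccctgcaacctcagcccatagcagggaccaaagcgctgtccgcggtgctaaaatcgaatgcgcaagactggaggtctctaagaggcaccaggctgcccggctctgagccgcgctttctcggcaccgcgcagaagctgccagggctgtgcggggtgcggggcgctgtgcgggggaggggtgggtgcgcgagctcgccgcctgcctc
Grm3: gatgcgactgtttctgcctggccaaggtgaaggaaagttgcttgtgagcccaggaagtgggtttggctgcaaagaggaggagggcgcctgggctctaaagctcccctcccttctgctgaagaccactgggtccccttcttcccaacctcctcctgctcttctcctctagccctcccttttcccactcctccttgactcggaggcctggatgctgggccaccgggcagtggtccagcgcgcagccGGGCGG
Grin1: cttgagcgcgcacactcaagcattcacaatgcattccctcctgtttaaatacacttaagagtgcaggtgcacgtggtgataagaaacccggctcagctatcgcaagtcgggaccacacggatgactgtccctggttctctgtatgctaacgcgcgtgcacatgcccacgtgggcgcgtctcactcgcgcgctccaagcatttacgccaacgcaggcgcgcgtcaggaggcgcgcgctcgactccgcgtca
Grm3 has 1 GC box in this window, in the last bases before the RefSeq start, whereas Gria2 and Grin1 have none. That start of Grm3 lies upstream of the gene's start in GENCODE M21, whereas the windows of Gria2 and Grin1 adjoin theirs. CpG dinucleotides number 19 before Gria2, 8 before Grm3 and 27 before Grin1. Their median number was 9 over the windows of the matched genes and 6 over the windows of all genes. Over the 43 start windows of the 28 matched genes a GC box was present in 19, or 44.2%, against 32.7% of 32851 windows of all genes. The TATA box letters (TATAAA, either strand) were in 3 of the 43 windows (6.98%, against 12.4% of all windows), and the cAMP response element (TGACGTCA) in 0 of them, against 1.55% of all windows. These matches describe letters and not bound factors.

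A check of the tissue came before the results. A region score was computed for every library as the mean level of 16 genes of striatum, cortex and thalamus minus the mean level of 19 genes of hippocampal excitatory neurons, each relative to its wild-type median on the log2(TPM + 0.5) scale. Of the 89 libraries, 11 had a score of at least 2.00 and the other 78 a score of at most 1.24, so the 11 are treated as standing apart. Counts of calls without them are given where they differed clearly from those with them. The 11 were 3 of 4 HO_TASTPM mice of 4 months, 2 of 4 TAU mice of 4 months, 2 of 8 wild-type mice of 8 months and 1 mouse each of HO_TASTPM at 2 and at 8 months, TAS10 at 2 months and TAU at 2 months. No library of 18 months was among them. The label check by transgene left doubt on 4 libraries, since Mapt (which the tau transgene's reads can raise) was at 174 and 204 TPM in 2 libraries labelled TAU, of 2 and 4 months, and App at 479 TPM in 1 labelled TAS10 and 532 TPM in 1 labelled HO_TASTPM, both of 8 months, while the other libraries of those lines had at least 397 TPM of Mapt in TAU and 1424 and 919 TPM of App in TAS10 and HO_TASTPM mice, and wild-type mice spanned 123 to 191 TPM for Mapt and 386 to 579.9 TPM for App. Of these 4, the library labelled TAS10 is the 1 that does not also stand apart by its region score, and with it left out TAS10 mice of 8 months still had 0 calls. The library labelled HO_TASTPM is that of mouse 452, and the TAU library of 2 months is that of mouse 1809.

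All 40 genes had a TPM above 0 in every wild-type library, the lowest value being 1.08 TPM (Grm8). The most abundant was Camk2b, the beta subunit of the calcium/calmodulin kinase that binds NMDA receptors, at 348 ± 68.4 TPM (SD, n = 31 over all ages). Next came Cnih2, a cornichon that slows the closing of AMPA receptors (287 ± 71.0 TPM), Gria2, the subunit that makes AMPA receptors impermeable to calcium (278 ± 36.0 TPM), and Dlg4, the PSD-95 gene (267 ± 35.4 TPM). The SDs of these neighbours in the order overlap, so their order is not firm. Gria1, the AMPA subunit inserted during potentiation, was at 206 ± 48.3 TPM and ranged more widely, between 86.4 and 281 TPM.

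The leading gene of each other role was Grin1, the obligatory NMDA subunit (146 ± 16.2 TPM), Grik5, a kainate subunit that needs a partner to form a channel (74.8 ± 7.31 TPM), Grm5, a group I metabotropic receptor (70.4 ± 12.9 TPM), Dlgap1 (151 ± 15.8 TPM), Shank1 (99.4 ± 19.3 TPM), Homer1 (57.3 ± 16.7 TPM) and Nlgn2, a neuroligin of inhibitory synapses (65.0 ± 7.55 TPM). At the low end stood Grin2d, an NMDA subunit of interneurons (4.93 ± 1.15 TPM), and Grm4 and Grm8, presynaptic group III receptors (3.62 ± 1.49 TPM and 2.60 ± 1.05 TPM). Among AMPA subunits Gria2 made up 47.9 ± 1.90% of the summed TPM, Gria1 35.0 ± 5.08%, Gria3 11.8 ± 2.08% and Gria4 5.24 ± 1.95%. Among the 4 Grin2 genes, Grin2b made up 42.4 ± 3.69% and Grin2a 37.1 ± 4.06%, shares whose spread overlaps.

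With age, none of the 40 genes passed the test in wild-type mice. Between 18 and 2 months, 0 of 40 had an adjusted p under 0.05 in limma, with 2 at an unadjusted p under 0.05, while 9.56% of 26268 genes tested passed. The same was found at 8 against 2 months (0 of 40, 5 unadjusted, 3.27% of all genes) and at 4 against 2 months (0 of 40, 1 unadjusted, 3.03%). The median difference of the 40 genes between 18 and 2 months was 0.04 on the log2 scale. The largest was that of Homer1, the Homer gene whose short form is induced by activity, at 39.0 to 56.8 TPM (median 44.2) at 18 months and 42.6 to 118 TPM (median 54.5) at 2 months (log2 difference -0.45, SE 0.26, adjusted p = 0.312). Grin2a, the NMDA subunit of mature synapses, was at 38.1 to 53.2 TPM (median 39.8) at 18 months and 23.7 to 47.9 TPM (median 31.2) at 2 months (log2 difference 0.42, SE 0.28, adjusted p = 0.392). Both ranges overlap. Without the libraries that stand apart, none of which is a wild-type mouse of 2 or 18 months, Homer1 was called lower and Shank3 higher. The mice compared were the same, and the share of all genes called was taken in the main fit only.

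The widest change of the set was in TAU mice of 18 months. Against wild-type mice of that age, 28 of the 40 genes were lower and 0 higher in limma at an adjusted p under 0.05, whereas 10.5% of all genes tested were lower and 11.9% higher. The difference was below 0 in 38 of 40, with a median of -0.79 on the log2 scale against -0.03 over all genes. In 31 of 40 genes both TAU mice lay below all 7 wild-type mice, a pattern found in 15.1% of all genes. The group holds 2 mice only, numbers 1149 and 1150, and mouse 1149 was the lower one in 37 of 40 genes. With mouse 1149 left out, 3 genes (Gria3, Grin1 and Grm3) still passed and the median difference was -0.47. With mouse 1150 left out 25 passed, at a median of -1.06.

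General neuron transcripts moved with these genes. All 10 genes of that list, Thy1 included, were lower in TAU mice of 18 months (median log2 difference -0.80), and the list's mean log2 level, relative to the wild-type median, was -1.20 and -0.57 in the TAU mice, against -0.29 to 0.09 in the 7 wild-type mice. All 12 microglia markers (median 2.31), 7 of 8 astrocyte markers (0.94), 3 of 8 oligodendrocyte markers and 3 of 5 oligodendrocyte precursor markers were higher. The microglia list averaged 2.36 and 2.97 in TAU and 0.08 to 0.33 in wild-type mice, and the astrocyte list 1.46 and 1.48 in TAU and 0.01 to 0.18 in wild-type mice. Markers of hippocampal excitatory neurons were lower in 6 of 19 genes (median -0.86) and those of interneurons in 2 of 8 (-0.48). In tissue of mixed cells, fewer neurons and less of these transcripts in each neuron cannot be told apart, here or in the comparisons that follow. Some libraries share both a lane number and an index sequence, so a lane number can cover several sequencing runs. Grouping libraries by lane number, here and below, may thus join unlike runs. The 2 TAU libraries carry lane numbers 2 and 6, and with lane as a covariate 15 genes passed. Of the 28 calls, 14 ended there (Gria2, Grin2b, Grik2, Grik3, Grik5, Cacng8, Dlg3, Dlgap1, Dlgap2, Dlgap3, Shank1, Shank2, Nlgn3 and Camk2b, at adjusted p-values of 0.058 to 0.307), and Gria4 was added.

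**Figure D1:**
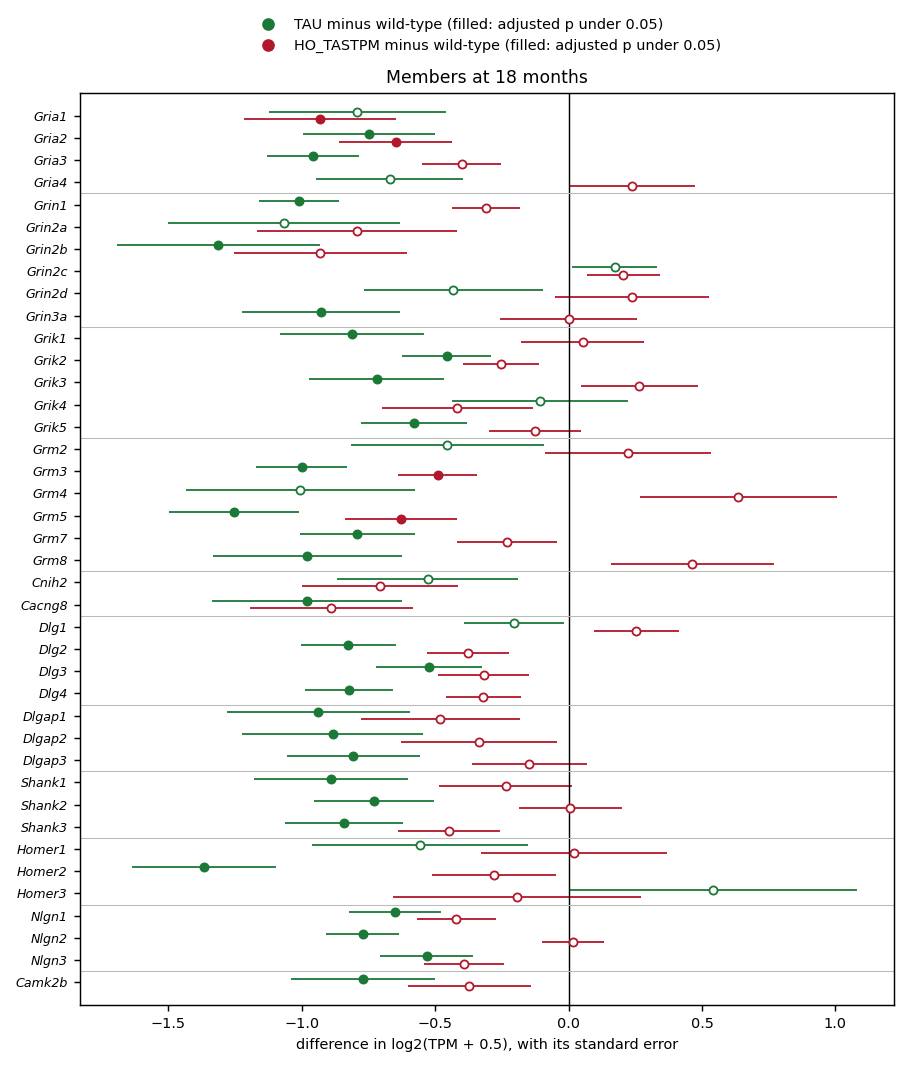
Difference in log2(TPM + 0.5) of each of the 40 genes between TAU (green) or HO_TASTPM (red) and wild-type mice of 18 months, with its standard error from limma; rows run by role and filled points have an adjusted p under 0.05. In TAU mice 28 points are filled, all left of 0, and in HO_TASTPM mice 4.

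Among AMPA receptor subunits in TAU mice of 18 months, 2 of 4 passed the test. Gria3 (chrX:41400854-41678601) stood at 30.6 and 38.4 TPM in the TAU mice, against 59.0 to 79.2 TPM (median 66.0) in wild-type mice (log2 difference -0.96, SE 0.17, adjusted p = 7.2e-06). Gria2 (chr3:80681450-80802835) was at 151 and 204 TPM in TAU mice and 259 to 333 TPM (median 293) in wild-type mice (log2 difference -0.75, SE 0.25, adjusted p = 0.0186). For both genes the 2 groups were separate. Gria1 (chr11:57011387-57330244) was separate too, at 107 and 143 TPM in TAU mice and 196 to 238 TPM (median 214) in wild-type mice, but did not pass (log2 difference -0.79, SE 0.33, adjusted p = 0.0758). Gria4, the fourth subunit, had a difference of -0.67 (adjusted p = 0.0695). Of their auxiliary subunits, Cacng8, the TARP gamma-8 that is enriched in hippocampus, was at 28.0 and 55.5 TPM in TAU mice and 65.5 to 93.6 TPM (median 80.8) in wild-type mice (log2 difference -0.98, SE 0.36, adjusted p = 0.0349). Cnih2 overlapped between the groups (log2 difference -0.53, SE 0.34, adjusted p = 0.293).

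NMDA receptor subunits held the second largest difference of the set. Grin2b (chr6:135713233-136173511), the subunit that carries the tail binding the calcium/calmodulin kinase, was at 13.3 and 27.4 TPM in TAU mice, against 43.7 to 53.0 TPM (median 48.6) in wild-type mice (log2 difference -1.31, SE 0.38, adjusted p = 0.00627). Grin1 (chr2:25291181-25319187), present in every NMDA receptor, was at 61.5 and 90.5 TPM in TAU mice and 143 to 161 TPM (median 151) in wild-type mice (log2 difference -1.01, SE 0.15, adjusted p = 6.7e-08), and it passed with either TAU mouse left out. Grin3a, a subunit that lowers calcium entry, was at 2.90 and 4.08 TPM in TAU mice and 4.89 to 11.2 TPM (median 7.87) in wild-type mice (log2 difference -0.93, SE 0.30, adjusted p = 0.015). The TAU mice were below every wild-type mouse for these 3 genes. Grin2a was also below, at 14.9 and 27.3 TPM in TAU mice against 38.1 to 53.2 TPM (median 39.8) in wild-type mice, and missed the threshold (log2 difference -1.07, SE 0.43, adjusted p = 0.0669). Grin2c and Grin2d overlapped, with differences of 0.17 and -0.43.

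Kainate receptor subunits were lower in 4 of 5. Grik1, a subunit of interneurons, was at 2.30 and 4.80 TPM in TAU mice and 3.72 to 9.02 TPM (median 6.38) in wild-type mice (log2 difference -0.81, SE 0.27, adjusted p = 0.0194). Grik3 was at 4.31 and 5.44 TPM in TAU mice and 6.22 to 10.2 TPM (median 8.17) in wild-type mice (log2 difference -0.72, SE 0.25, adjusted p = 0.0295). Grik5 was at 41.6 and 59.5 TPM in TAU mice and 70.5 to 80.6 TPM (median 73.5) in wild-type mice (log2 difference -0.58, SE 0.20, adjusted p = 0.0245). The groups were apart for Grik3 and Grik5 but not for Grik1. Grik2, a channel-forming subunit of mossy fibre synapses, was at 23.6 and 28.1 TPM in TAU mice and 26.9 to 40.5 TPM (median 36.5) in wild-type mice, with overlap (log2 difference -0.46, SE 0.17, adjusted p = 0.0369). Grik4, an auxiliary-type subunit of CA3, differed by -0.11 and its groups overlapped.

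Metabotropic receptors were lower in 4 of 6. Grm5 (chr7:87584168-88134907), which couples to phospholipase C, was at 23.5 and 44.7 TPM in TAU mice, against 68.2 to 83.6 TPM (median 79.9) in wild-type mice (log2 difference -1.25, SE 0.24, adjusted p = 3.3e-05). Grm3 (chr5:9485541-9725170), a group II receptor that inhibits adenylyl cyclase and is made by astrocytes as well as neurons, was at 8.14 and 10.1 TPM in TAU mice and 15.7 to 20.9 TPM (median 18.5) in wild-type mice (log2 difference -1.001, SE 0.17, adjusted p = 2.7e-06). It was lower while 7 of 8 astrocyte markers were higher in the same mice. Grm7, a presynaptic group III receptor, was at 27.8 and 47.3 TPM in TAU mice and 48.7 to 91.9 TPM (median 60.7) in wild-type mice (log2 difference -0.79, SE 0.22, adjusted p = 0.00371). Grm8, of the same group, was at 0.551 and 1.28 TPM in TAU mice and 1.17 to 3.02 TPM (median 2.22) in wild-type mice, ranges that overlap (log2 difference -0.98, SE 0.36, adjusted p = 0.0352). Grm4 and Grm2 were below every wild-type mouse without passing, at differences of -1.01 and -0.45.

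The scaffold followed the same direction. Homer2 (chr7:81600481-81707527), a long Homer form that links Shank to group I receptors, had the largest difference of the 40 genes, at 4.91 and 8.63 TPM in TAU mice against 16.2 to 19.2 TPM (median 17.2) in wild-type mice (log2 difference -1.37, SE 0.27, adjusted p = 4.5e-05). The other Homer genes did not pass, and Homer3 lay above 0 (47.1 and 79.3 TPM in TAU mice, 31.2 to 56.4 TPM (median 44.1) in wild-type mice, log2 difference 0.54). Of the guanylate kinases, Dlg4 was at 114 and 195 TPM in TAU mice and 212 to 331 TPM (median 263) in wild-type mice (log2 difference -0.82, SE 0.16, adjusted p = 5.5e-05). Dlg2, the PSD-93 gene, was at 36.8 and 63.4 TPM in TAU mice and 68.6 to 97.2 TPM (median 88.5) in wild-type mice (log2 difference -0.83, SE 0.18, adjusted p = 0.00018). Dlg3, the SAP102 gene, was at 42.1 and 43.3 TPM in TAU mice and 53.3 to 74.3 TPM (median 59.6) in wild-type mice (log2 difference -0.52, SE 0.20, adjusted p = 0.0454). All 3 were separate from wild-type. Dlg1, the SAP97 gene, overlapped (log2 difference -0.20).

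All 3 SAPAP genes and all 3 Shank genes were lower without the lane covariate, under which Shank3 alone of the 6 passed, and in each of the 6 both TAU mice lay below every wild-type mouse. Dlgap1 was at 68.0 and 99.5 TPM in TAU mice and 150.3 to 167 TPM (median 159) in wild-type mice (log2 difference -0.94, SE 0.34, adjusted p = 0.0378). Dlgap3, the SAPAP3 gene, was at 25.8 and 44.2 TPM in TAU mice and 54.4 to 64.3 TPM (median 59.6) in wild-type mice (log2 difference -0.81, SE 0.25, adjusted p = 0.0113). Dlgap2 was at 6.69 and 10.3 TPM in TAU mice and 14.2 to 19.2 TPM (median 15.2) in wild-type mice and only just passed (log2 difference -0.88, SE 0.34, adjusted p = 0.0497). Shank1 was at 41.2 and 78.4 TPM in TAU mice and 89.9 to 124 TPM (median 107) in wild-type mice (log2 difference -0.89, SE 0.29, adjusted p = 0.0164). Shank3, whose loss causes a synaptic disorder in people, was at 24.1 and 39.4 TPM in TAU mice and 50.3 to 63.6 TPM (median 52.7) in wild-type mice (log2 difference -0.84, SE 0.22, adjusted p = 0.00239). Shank2 was at 14.8 and 21.7 TPM in TAU mice and 24.9 to 34.9 TPM (median 30.2) in wild-type mice (log2 difference -0.73, SE 0.22, adjusted p = 0.011). The 3 Shank genes thus differed from wild-type by amounts within 1 SE of each other.

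Neuroligins, which join the postsynaptic membrane to presynaptic neurexins, were lower in all 3. Nlgn2 was at 28.9 and 46.1 TPM in TAU mice and 55.5 to 68.8 TPM (median 64.5) in wild-type mice (log2 difference -0.77, SE 0.14, adjusted p = 5.6e-06). Nlgn1, of excitatory synapses, was at 10.1 and 17.1 TPM in TAU mice and 18.6 to 22.9 TPM (median 21.2) in wild-type mice (log2 difference -0.65, SE 0.17, adjusted p = 0.00253). Nlgn3, of both kinds of synapse, was at 15.6 and 21.3 TPM in TAU mice and 24.3 to 30.7 TPM (median 25.9) in wild-type mice (log2 difference -0.53, SE 0.17, adjusted p = 0.0185). The inhibitory and the excitatory neuroligin were thus both lower. Camk2b was at 182 and 231 TPM in TAU mice and 298 to 449 TPM (median 330.0) in wild-type mice (log2 difference -0.77, SE 0.27, adjusted p = 0.0277).

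**Figure D2:**
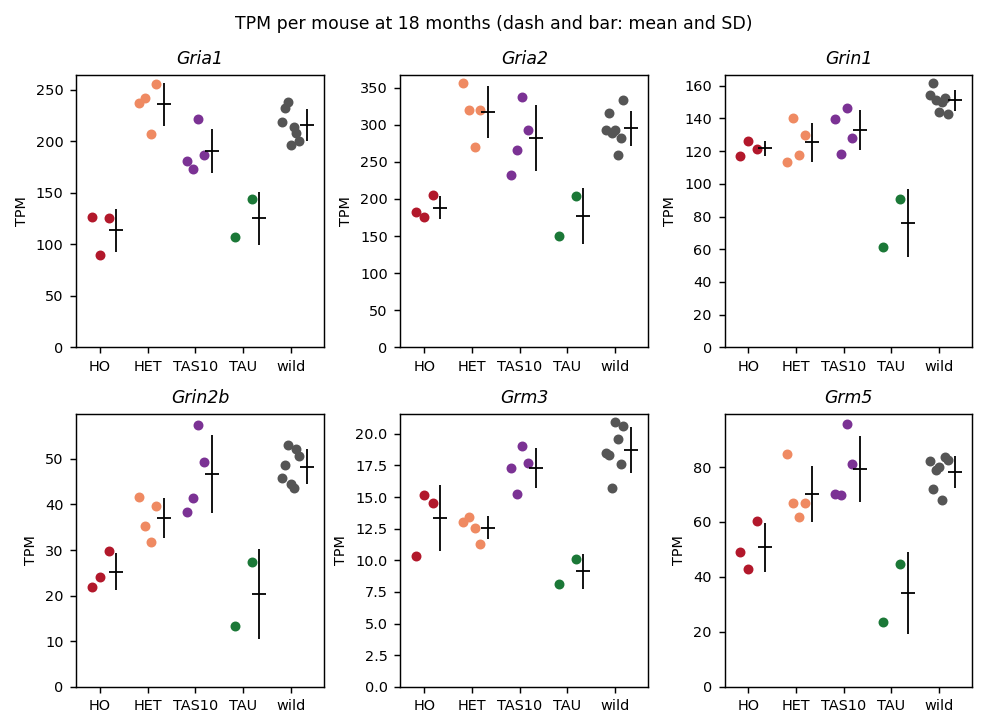
TPM of 6 receptor genes in every mouse of 18 months, by line (HO_TASTPM, HET_TASTPM, TAS10, TAU, wild-type), with the mean and SD beside the points on axes that start at 0. HO_TASTPM and TAU mice lie below every wild-type mouse for all 6 genes, and HET_TASTPM mice do so for Grin1, Grin2b and Grm3.

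In HO_TASTPM mice of 18 months fewer of the 40 genes passed, and the 4 that did were 2 AMPA subunits and 2 metabotropic receptors. The test called 4 lower and 0 higher, while 1.20% of all genes were lower and 6.63% higher. Gria1 was at 89.8, 125 and 126 TPM in HO_TASTPM mice, against 196 to 238 TPM (median 214) in wild-type mice (log2 difference -0.93, SE 0.29, adjusted p = 0.0265). Gria2 was at 176, 183 and 205 TPM in HO_TASTPM mice and 259 to 333 TPM (median 293) in wild-type mice (log2 difference -0.65, SE 0.21, adjusted p = 0.041). Grm5 was at 42.7, 49.1 and 60.5 TPM in HO_TASTPM mice and 68.2 to 83.6 TPM (median 79.9) in wild-type mice (log2 difference -0.63, SE 0.21, adjusted p = 0.0465). Grm3 was at 10.3, 14.5 and 15.2 TPM in HO_TASTPM mice and 15.7 to 20.9 TPM (median 18.5) in wild-type mice (log2 difference -0.49, SE 0.15, adjusted p = 0.0227). The 3 HO_TASTPM mice lay below all 7 wild-type mice for each of these genes, as they did for 17 of the 40, against 4.41% of all genes.

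Further genes had differences of like size with a larger standard error. Grin2b was at 21.9, 24.1 and 29.8 TPM in HO_TASTPM mice and 43.7 to 53.0 TPM (median 48.6) in wild-type mice (log2 difference -0.93, SE 0.33, adjusted p = 0.0632). Cacng8 was at 32.6, 45.1 and 50.6 TPM in HO_TASTPM mice and 65.5 to 93.6 TPM (median 80.8) in wild-type mice (log2 difference -0.89, SE 0.31, adjusted p = 0.0562). Grin2a was at 22.004, 25.4 and 26.4 TPM in HO_TASTPM mice and 38.1 to 53.2 TPM (median 39.8) in wild-type mice (log2 difference -0.79, SE 0.37, adjusted p = 0.218). In these 3 genes, as in Cnih2 (135, 165 and 181 TPM in HO_TASTPM mice, 198 to 325 TPM (median 263) in wild-type mice, log2 difference -0.71) and Dlgap1 (104, 113 and 124 TPM in HO_TASTPM mice, 150.3 to 167 TPM (median 159) in wild-type mice, log2 difference -0.48), the groups were separate. Grm4 lay the other way at 3.57, 4.86 and 5.86 TPM in HO_TASTPM mice and 1.88 to 4.699 TPM (median 2.96) in wild-type mice, with overlap (log2 difference 0.64). The median over the 40 genes was -0.29, against 0.01 over all genes tested.

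The region score moved with this comparison. It was 0.67 to 1.24 in the 3 HO_TASTPM mice of 18 months and -0.64 to 0.27 in the wild-type mice, and the genes of hippocampal excitatory neurons had a median log2 difference of -0.69 with 1 of 19 lower. With the region score as a covariate, Gria1 (-0.47, adjusted p = 0.00256) and Grm3 (-0.62, adjusted p = 0.00048) passed, whereas Gria2 was at -0.38 and Grm5 at -0.42 without passing. General neuron genes other than Thy1 averaged -0.28 to -0.09 in the HO_TASTPM mice relative to wild-type, within the wild-type range of -0.30 to 0.11, while all 12 microglia markers and 7 of 8 astrocyte markers were higher (list means 1.96 to 2.28 and 0.95 to 1.01 in HO_TASTPM mice, 0.08 to 0.33 and 0.01 to 0.18 in wild-type mice). The part of these glial transcripts in the result was not tested. Leaving out the 11 libraries that stand apart, none of which is of 18 months, kept the 4 calls and added 12 (16 of 40 lower), the mice compared being the same. The share of all genes called was taken in the main fit only, so none can be set beside this count. Leaving out HO_TASTPM mouse 113 ended all 4 calls, leaving out mouse 154 left Grm3 alone, and leaving out mouse 97 ended those of Gria1 and Gria2 and gave Grm3, Grm5 and Nlgn1. The calls of Gria1 and Gria2 thus ended without any one of the 3 HO_TASTPM mice. Leaving out wild-type mouse 1145, 1161, 2098 or 2155 left Gria1 and Grm3, leaving out mouse 1151 ended the call of Gria2, and leaving out mouse 2153 that of Grm5. All 3 HO_TASTPM libraries carry lane number 3, and against the 3 wild-type mice of that lane number 6 genes passed (Gria1, Gria2, Gria3, Grin1, Grin2b and Dlgap1, all lower), without Grm3 (-0.37, adjusted p = 0.308) and Grm5. With lane as a covariate 12 passed.

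In HET_TASTPM mice of 18 months 1 of the 40 genes passed, Grm3, against 1.15% of all genes lower and 4.67% higher. It was at 11.3, 12.6, 13.0 and 13.4 TPM in HET_TASTPM mice and 15.7 to 20.9 TPM (median 18.5) in wild-type mice, without overlap (log2 difference -0.55, SE 0.13, adjusted p = 0.00457). The call stood in each of the 11 fits that left out 1 mouse. It ended with lane as a covariate (-0.43, adjusted p = 0.228), the HET_TASTPM libraries having lane numbers 7 and 8 and no wild-type library of 18 months having either. Differences of that size that did not pass were those of Homer3 (57.1, 59.4, 64.02 and 103 TPM in HET_TASTPM mice, 31.2 to 56.4 TPM (median 44.1) in wild-type mice, log2 difference 0.71) and Grin2a (25.4, 29.5, 30.9 and 33.9 TPM in HET_TASTPM mice, 38.1 to 53.2 TPM (median 39.8) in wild-type mice, log2 difference -0.52). All HET_TASTPM mice lay above the wild-type mice for Homer3, the 1 such gene of the 40 (4.89% of all genes), and below them for 5 genes, Grm3, Grin2a, Grin1, Grin2b and Dlgap1 (2.00% of all genes). Gria1 and Gria2 did not pass in these mice (207, 237, 242 and 256 TPM for Gria1 and 270.4, 320.2, 320.3 and 357 TPM for Gria2, log2 differences 0.13 and 0.10), and all 12 microglia markers were higher here too.

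TAS10 mice showed no call at any age. At 18 months 0 of 40 genes passed and 1 had an unadjusted p under 0.05, beside 0.0571% of all genes called. The counts were also 0 at 2, 4 and 8 months (4, 1 and 1 unadjusted), beside 0.213%, 0.164% and 0.129% of all genes. At 18 months the largest difference was that of Grm8, at 2.72, 3.04, 3.20 and 3.59 TPM in TAS10 mice and 1.17 to 3.02 TPM (median 2.22) in wild-type mice (log2 difference 0.42, SE 0.28, adjusted p = 1). Gria1 was at 173, 180.4, 186 and 221 TPM in TAS10 mice, overlapping the wild-type range (log2 difference -0.18).

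Grm3 was the single member called lower in HO_TASTPM, HET_TASTPM and TAU mice of 18 months alike. These comparisons share the 7 wild-type mice, so they are not independent. Its differences were -0.49 in HO_TASTPM, -0.55 in HET_TASTPM and -1.001 in TAU mice, and -0.11 in TAS10 mice (15.2, 17.3, 17.7 and 19.0 TPM), where it did not pass. The HET_TASTPM call ended with lane as a covariate, and the HO_TASTPM call ended against the wild-type mice of lane number 3 alone. Grm3 was lower at 8 months in HO_TASTPM mice as well, against other wild-type mice. That call ended without a filter on low values and with only the groups compared. Grin1, Grin2a, Grin2b and Dlgap1 also lay below every wild-type mouse in HO_TASTPM, HET_TASTPM and TAU mice of 18 months, but none was called in each. The share of all genes that lay below in all 3 lines was not counted.

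**Figure D3:**
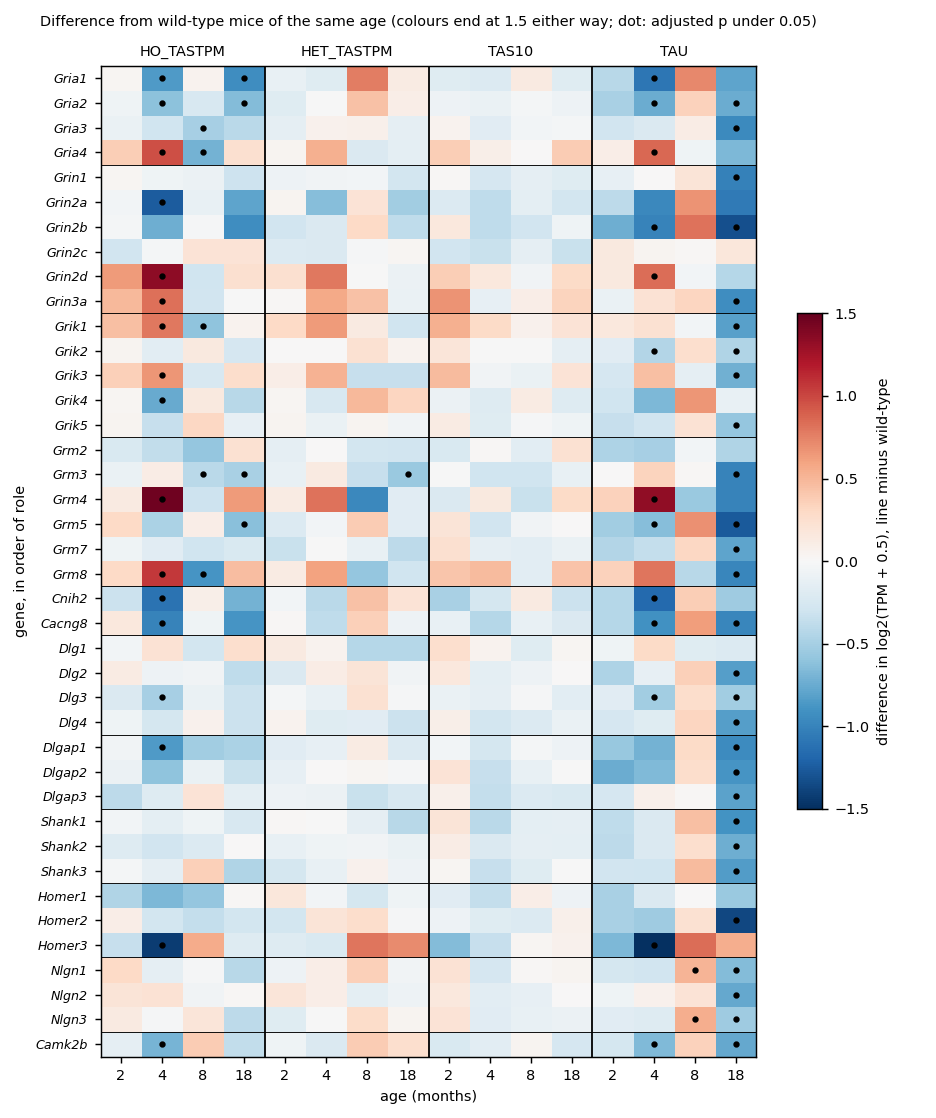
Difference in log2(TPM + 0.5) of the 40 genes (rows, by role) between each line and wild-type mice of the same age (columns); blue is lower and red higher in the line, and a dot marks an adjusted p under 0.05. Calls are dense in TAU mice of 18 months (28) and in HO_TASTPM (17) and TAU mice (13) of 4 months, in which 3 and 2 of 4 libraries stand apart, and TAS10 columns hold none.

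At 8 months, 5 of the 40 genes were lower and 0 higher in HO_TASTPM mice, beside 4.26% of all genes lower and 4.82% higher. Gria3 was at 38.1, 49.9, 50.6 and 56.7 TPM in HO_TASTPM mice, all below the 60.7 to 80.2 TPM (median 68.1) of wild-type mice (log2 difference -0.50, SE 0.13, adjusted p = 0.00606). Gria4, an AMPA subunit of interneurons, was at 15.9, 19.6, 20.1 and 22.9 TPM in HO_TASTPM mice and 18.5 to 44.8 TPM (median 33.7) in wild-type mice (log2 difference -0.71, SE 0.21, adjusted p = 0.0178). Grm8 was at 1.005, 1.70, 1.86 and 2.07 TPM in HO_TASTPM mice and 1.77 to 4.92 TPM (median 3.69) in wild-type mice (log2 difference -0.89, SE 0.27, adjusted p = 0.022). The ranges of Gria4 and Grm8 overlap. Grik1 was at 2.22, 3.66, 4.705 and 5.10 TPM in HO_TASTPM mice and 4.63 to 7.46 TPM (median 6.03) in wild-type mice (log2 difference -0.60, SE 0.21, adjusted p = 0.0486). Grm3 was at 10.6, 11.1, 13.7 and 21.3 TPM in HO_TASTPM mice and 15.6 to 28.5 TPM (median 16.6) in wild-type mice (log2 difference -0.41, SE 0.13, adjusted p = 0.0315). The highest HO_TASTPM value was that of mouse 452, which stands apart and has a label in doubt.

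Without that mouse and the 2 wild-type mice that stand apart, Gria3 (-0.33, adjusted p = 0.00408) and Grm3 (-0.53, adjusted p = 0.00348) remained lower. Gria4, Grik1 and Grm8 did not pass there, at -0.65, -0.39 and -0.88, and Homer1 was called lower and Grik5 higher. Interneuron markers moved with Gria4 and Grik1, being lower in 4 of 8 genes with all mice (median -0.61) and in 5 of 8 without those that stand apart, and their part in the result was not tested. All 12 microglia markers were higher (median 1.92). Leaving out mouse 453 left 1 call, Gria3, and leaving out HO_TASTPM mouse 452 or wild-type mouse 1462 or 1472 left 3. In HET_TASTPM mice of 8 months 0 of 40 passed (9 unadjusted), beside 5.44% of all genes, and also 0 at 2 and 4 months (1 and 7 unadjusted), beside 0.148% and 0.693%.

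At 4 months most of the HO_TASTPM mice and 2 of the TAU mice stand apart. In HO_TASTPM mice 7 genes were higher and 10 lower (9.27% and 3.40% of all genes), and 3 of the 4 mice stand apart. Grm4 was at 3.98, 5.76, 9.51 and 14.5 TPM in HO_TASTPM mice, with the lowest value in the mouse that does not stand apart, and 1.60 to 3.44 TPM (median 2.47) in wild-type mice (log2 difference 1.46, SE 0.33, adjusted p = 0.00143). Grin2a was at 8.82, 11.54, 27.0 and 39.0 TPM in HO_TASTPM mice, with the highest value in that same mouse, and 29.0 to 56.8 TPM (median 48.5) in wild-type mice (log2 difference -1.25, SE 0.33, adjusted p = 0.00661). Higher genes were Gria4, Grin2d, Grin3a, Grik1, Grik3, Grm4 and Grm8, and lower ones Gria1, Gria2, Grin2a, Grik4, Cnih2, Cacng8, Dlg3, Dlgap1, Homer3 and Camk2b. Leaving out mouse 812 alone left 2 calls and mouse 811 alone left 5. Leaving out the libraries that stand apart leaves 1 HO_TASTPM mouse, assumed to vary like the other groups, and 0 of the 17 then passed. Differences in that mouse were 0.61 for Grm4 and 0.61 for Grin3a, and -0.17 for Grin2a and -0.16 for Gria1. With 1 mouse the loss of the calls says little. With the region score as a covariate 1 passed, Grin2d (log2 difference 1.04, adjusted p = 0.0291).

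TAU mice of 4 months, of which 2 of 4 stand apart, had 3 genes higher (Gria4, Grin2d and Grm4) and 10 lower, beside 3.99% and 3.46% of all genes. Gria1 was at 59.9, 72.2, 184 and 197 TPM in TAU mice, the lowest 2 values being those of the libraries that stand apart, and 178 to 281 TPM (median 248) in wild-type mice (log2 difference -1.08, SE 0.25, adjusted p = 0.0046). Without those libraries 0 genes passed (Gria1 -0.32), and 0 with the region score as a covariate. Leaving out mouse 1817 alone left 0, mouse 1816 alone left 6 and mouse 1818 alone gave 20. In both lines 14 of 19 genes of hippocampal excitatory neurons were lower at this age (median log2 difference -0.98 in HO_TASTPM and -1.34 in TAU mice).

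Wild-type libraries that stand apart differed from the rest of their group as well. Among the 8 wild-type mice of 8 months, the 2 that stand apart (1462 and 2342) had 86.4 and 95.3 TPM of Gria1, below the 132 to 225 TPM of the other 6. Both were also below the other 6 for Grik4, Cnih2, Cacng8, Homer3 and Camk2b, and above them for Gria3, Gria4 and Dlgap3. The share of all genes placed in this way was not counted. The 2 libraries were picked by their region score, so these differences are no separate test of it.

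**Figure D4:**
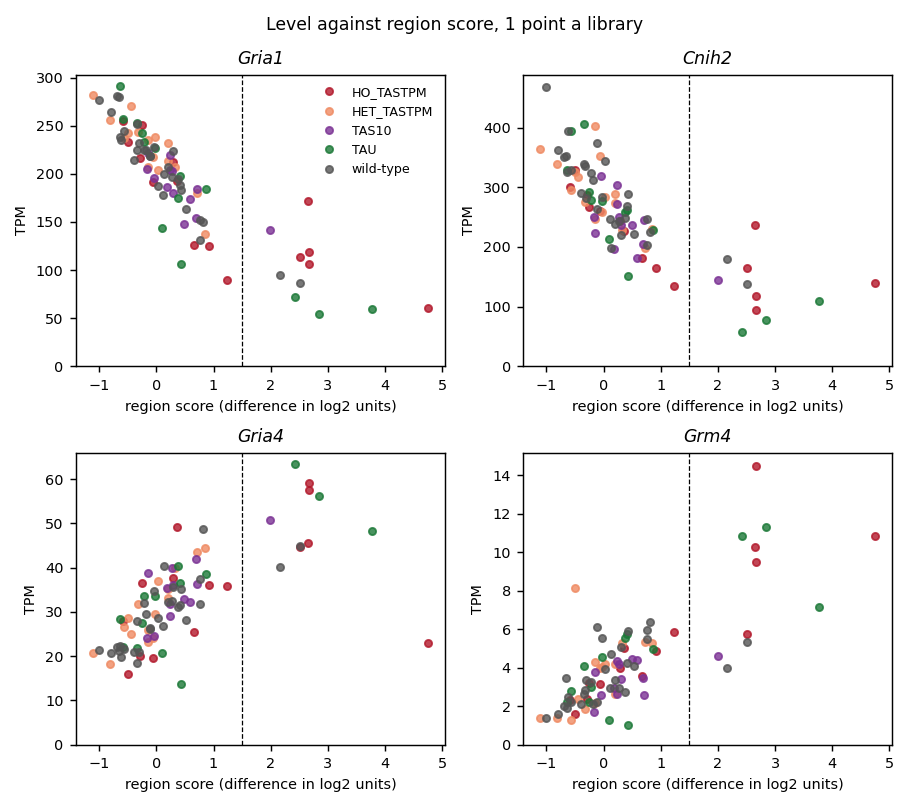
TPM of Gria1, Cnih2, Gria4 and Grm4 in each of the 89 libraries against the library's region score, a difference of marker means in log2 units; colours are lines and the dashed line is at 1.5. The 11 libraries to its right have a median of 95.3 TPM of Gria1 and 9.51 TPM of Grm4, against 214 and 3.36 TPM in the other 78, and come from 4 of the 5 lines.

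In TAU mice of 8 months, of which none stands apart while 2 of their 8 wild-type controls do, 2 genes were higher and 0 lower, beside 0.659% of all genes higher and 0.0761% lower. Nlgn1 (chr3:25426215-26332460) was at 24.1, 24.7, 24.9 and 25.3 TPM in TAU mice, all above the 14.7 to 23.7 TPM (median 16.8) of wild-type mice (log2 difference 0.51, SE 0.13, adjusted p = 0.0417). Nlgn3 (chrX:101299168-101325963) was at 30.4, 30.4, 32.05 and 33.0 TPM in TAU mice and 15.2 to 33.8 TPM (median 20.8) in wild-type mice, where 1 mouse reached above the TAU range (log2 difference 0.54, SE 0.13, adjusted p = 0.0317). Without the 2 wild-type mice and the other libraries that stand apart, Nlgn1 (0.48, adjusted p = 0.0108) and Nlgn3 (0.46, adjusted p = 0.0275) passed, as did Grin2b, Grm5 and Dlg2 (5 calls). Both calls ended with the region score as a covariate in all libraries (adjusted p = 0.216 and 0.179). Nlgn1 passed in 3 and Nlgn3 in 4 of 12 fits that left out 1 mouse, and neither passed without any one of the 4 TAU mice. At 8 months these neuroligins were higher and at 18 months lower in TAU than in wild-type mice, in different animals. At 2 months 0 of 40 genes passed in TAU (12 unadjusted, 0.586% of all genes) and 0 in HO_TASTPM mice (6 unadjusted, 1.86%).

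Differences between lines were tested directly. Against HET_TASTPM mice of 18 months, HO_TASTPM mice were lower in 2 genes and higher in 1 (2.46% and 3.95% of all genes). Those lower were Gria1 (89.8, 125 and 126 TPM in HO_TASTPM, 207, 237, 242 and 256 TPM in HET_TASTPM mice, log2 difference -1.06, SE 0.32, adjusted p = 0.0286) and Gria2 (176, 183 and 205 TPM in HO_TASTPM, 270.4, 320.2, 320.3 and 357 TPM in HET_TASTPM mice, log2 difference -0.75, SE 0.23, adjusted p = 0.0376), the 2 major AMPA subunits. Dlg1, whose protein escorts AMPA receptors to the membrane, was higher (65.7, 88.0 and 93.5 TPM in HO_TASTPM, 39.97, 52.6, 53.8 and 58.5 TPM in HET_TASTPM mice, log2 difference 0.68, SE 0.18, adjusted p = 0.0115). Against wild-type mice of 18 months, Dlg1 was not called in HO_TASTPM mice under any setting. In HET_TASTPM mice it was called with quantile normalization, with the filter at 1.5 and without the libraries that stand apart, but not in the main fit. The region score also separated these mice, at 0.67 to 1.24 in HO_TASTPM and -0.81 to -0.15 in HET_TASTPM mice, and with it as a covariate only Gria1 of the 3 passed (-0.43, adjusted p = 0.0361). Leaving out HO_TASTPM mouse 97 or 154 or HET_TASTPM mouse 510 ended all 3 calls, and leaving out HO_TASTPM mouse 113 or HET_TASTPM mouse 492 left 1. At 8 months 4 genes were lower in HO_TASTPM than in HET_TASTPM mice and 0 higher (9.12% and 4.67% of all genes): Gria2 (-0.68), Gria3 (-0.57), Grin3a (-0.73) and Grik1 (-0.74). Leaving out mouse 452 alone, whose label is in doubt by its App level, ended all 4 calls. Without mouse 452 and the other libraries that stand apart, Gria2 and Gria3 passed of these 4. At 2 and 4 months 0 of 40 passed (4 and 10 unadjusted, beside 1.67% and 1.52% of all genes).

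TAU mice of 18 months were lower than HO_TASTPM mice of that age in 6 genes and higher in 0 (5.02% and 3.05% of all genes). Nlgn2 was at 28.9 and 46.1 TPM in TAU and 61.8, 63.6 and 64.8 TPM in HO_TASTPM mice (log2 difference -0.79, SE 0.16, adjusted p = 0.00022). Grin1 was at 61.5 and 90.5 TPM in TAU and 117, 121 and 126 TPM in HO_TASTPM mice (log2 difference -0.70, SE 0.17, adjusted p = 0.0033). Homer2 was at 4.91 and 8.63 TPM in TAU and 13.4, 14.4 and 15.6 TPM in HO_TASTPM mice (log2 difference -1.09, SE 0.31, adjusted p = 0.0146). The other 3 were Grik3 (-0.98), Grm4 (-1.64) and Grm8 (-1.44). For Grm4 and Grm8 all 3 HO_TASTPM mice, and for Grik3 2 of 3, lay above the median of wild-type mice. For Gria1 the 2 lines did not differ beyond their spread (107 and 143 TPM in TAU, 89.8, 125 and 126 TPM in HO_TASTPM mice, log2 difference 0.14, SE 0.38, adjusted p = 0.946). With only the 2 groups compared, all 6 calls ended, at adjusted p-values of 0.0722 (Grm4) to 0.159 (Nlgn2). Leaving out mouse 1149 left 1 call, Grm8, leaving out HO_TASTPM mouse 97 or 154 left 3, and leaving out mouse 1150 gave 13.

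The difference from wild-type mice at 18 months was also set against that at 2 months. In TAU mice it was lower at 18 months for 6 genes, Gria3, Grin1, Grik1, Grm3, Grm8 and Nlgn2, and higher for 0 (4.36% and 7.10% of all genes). The change was -1.001 for Grm3 (SE 0.22, adjusted p = 0.00037) and -0.89 for Grin1 (SE 0.19, adjusted p = 0.00028). Without the libraries that stand apart, 1 of which is a TAU mouse of 2 months, 24 genes passed, but Grik1 (-0.83, adjusted p = 0.0733) and Grm8 (-1.11, adjusted p = 0.075) were not among them. Of 21 fits that left out 1 mouse, Grm3 passed in 21, Grin1 and Nlgn2 in 20, Gria3 in 17, Grm8 in 13 and Grik1 in 10. Leaving out mouse 1149 left 2, Grm3 and Grm8, while leaving out mouse 1150 gave 10, mouse 1809 gave 12 and TAU mouse 1811 of 2 months left 3. With only the groups compared 2 passed. In HO_TASTPM mice 2 genes were lower, Grm5 (-0.93, SE 0.28, adjusted p = 0.0275) and Nlgn1 (-0.72, SE 0.20, adjusted p = 0.0134), and 0 higher (1.41% and 5.12% of all genes), and without the libraries that stand apart 13 passed. Both ended without HO_TASTPM mouse 113 or 154 of 18 months or mouse 967 of 2 months. HET_TASTPM and TAS10 mice had 0 calls (4 and 0 unadjusted, beside 1.60% and 0.0190% of all genes).

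The mean of log2(TPM + 0.5) over the 40 genes gives 1 value a mouse and is a description only. At 18 months it was 4.36 and 4.89 in TAU mice, 5.05, 5.08 and 5.22 in HO_TASTPM mice, 5.14 to 5.32 in HET_TASTPM mice, 5.27 to 5.49 in TAS10 mice and 5.22 to 5.43 in wild-type mice. The TAU values are below all others of that age, and the highest HO_TASTPM value equals the lowest wild-type value at this rounding. At 8 months TAU mice held the upper end, at 5.48 to 5.54 against 5.002 to 5.57 in wild-type mice. Low values at earlier ages belong to libraries that stand apart, such as 4.35 in TAU mouse 1809 of 2 months and 4.64 in HO_TASTPM mouse 452 of 8 months.

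**Figure D5:**
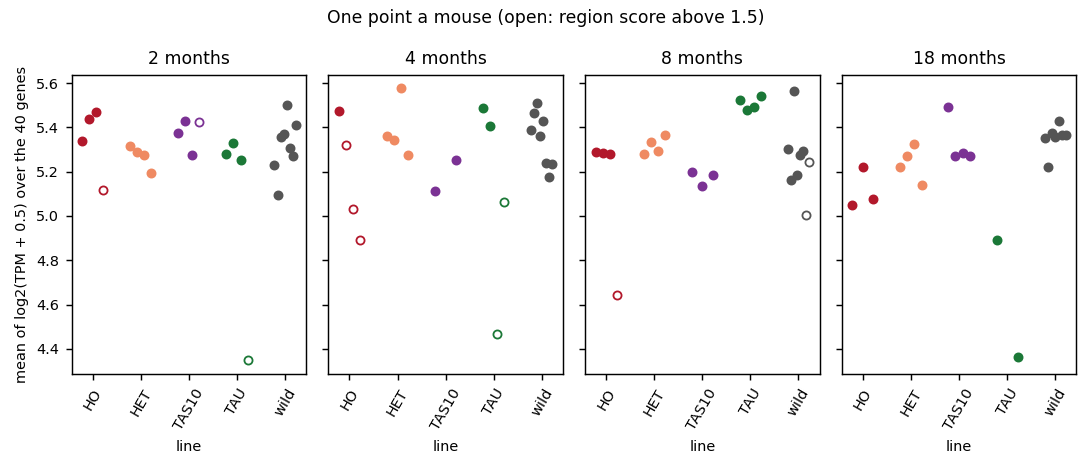
Mean of log2(TPM + 0.5) over the 40 genes in each mouse, by age and line, with open points for the 11 libraries whose region score is above 1.5. At 18 months the 2 TAU mice lie lowest, at 4.36 and 4.89, and at 2, 4 and 8 months the lowest points are open.

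Ratios of subunits within a library are given as a description. Grin2a stood to Grin2b as 0.9997 and 1.12 in TAU mice of 18 months, 0.89 to 1.16 in HO_TASTPM, 0.74 to 0.86 in HET_TASTPM and 0.73 to 0.80 in TAS10 mice, against 0.73 to 1.05 in wild-type mice, so every line overlapped wild-type. Gria1 stood to Gria2 as 0.70 and 0.71 in TAU mice and 0.51 to 0.69 in HO_TASTPM mice, against 0.60 to 0.83 in wild-type mice. The lowest, 0.51, was in HO_TASTPM mouse 154, which also has the highest region score of its group. Over all ages the wild-type ratio of Gria1 to Gria2 spanned 0.38 to 0.98, with the lowest value in 1 of the libraries that stand apart.

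Other genes of the postsynaptic side, a list of 36 that holds further auxiliary subunits, adhesion proteins and delta receptors, were also tested at 18 months. In TAU mice 17 of 36 were lower and 0 higher, beside 10.5% and 11.9% of all genes, with a median log2 difference of -0.65. They included Grid1, a delta receptor (-0.92), Gsg1l and Shisa9, auxiliary subunits of AMPA receptors (-1.80 and -0.88), and Lrrtm4, a postsynaptic adhesion protein (-1.08). Of these, Gsg1l was at 3.44 and 3.499 TPM in TAU mice against 10.1 to 17.2 TPM in wild-type mice, a larger difference than that of any of the 40 genes. In HO_TASTPM mice 2 of 36 were lower, beside 1.20% of all genes, Lrrtm4 (log2 difference -0.75, SE 0.19, adjusted p = 0.00391) and Grid1 (log2 difference -0.33, SE 0.11, adjusted p = 0.0487), and in HET_TASTPM mice 0 (3 unadjusted). At 8 months 1 of 36 was lower in HO_TASTPM mice, beside 4.26% of all genes, Nptx2, a pentraxin that clusters AMPA receptors (log2 difference -0.66, SE 0.21, adjusted p = 0.0282).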

How the data were processed

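Hippocampal RNA of 103 mice was sequenced as paired reads, and 89 libraries of 20 groups of line and age are reported here. Per the submitters' processing notes, reads were trimmed with Trim Galore and quantified with Salmon on GRCm38, and the deposited TPM values are the authors' gene sums of transcript estimates. No read counts were used, so no count model was run. The depth of each library is unknown beyond the nominal read number that the paper gives. The line with the second TASTPM transgene alone stayed in the fit and is not reported here.

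Values were analysed as log2(TPM + 0.5), so a fold change of a low gene is understated. A gene was kept when its mean reached 0.5 TPM in any group (26268 genes). limma 3.58.1 (R 4.3.3) fitted 1 mean for each of the 24 groups, with a mean-dependent prior variance, and p-values were Benjamini-Hochberg adjusted over all genes tested, with 0.05 as the threshold. All adjusted p-values in the text come from limma. Tables and plots were made with Python 3.11.15, pandas 2.3.3, numpy 2.4.6 and matplotlib 3.10.9. The fit was tested on simulated data with independent noise. These held no differences of tissue or lane, so they say nothing on how the fit handles those.

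Members and lists were chosen with earlier results of these data known. Values per mouse are given for members past the threshold in the comparisons with wild-type mice at 18 months, of HO_TASTPM at 8 months and of wild-type age, for those among the 10 largest differences there that the text discusses, and for the most abundant member of each role. Up to 4 other postsynaptic genes with the smallest p were named, and the 4-month, 8-month TAU and line comparisons name calls chosen after their values were seen. Alternatives were pseudocounts of 0.1 and 1, other filters, quantile normalization, lane or region score as a covariate, only the groups compared, no libraries that stand apart and each mouse left out. Lane numbers can cover several sequencing runs, so the lane covariate may join unlike runs. Gene coordinates are those of GENCODE M21.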

Additional observations from a re-analysis of the deposited data

Results flagged for a closer look

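In 58 combinations of a measure and a group of 4 to 8 mice, which reuse the same mice, the highest and lowest values were compared with the rest of the group. Of these, 7 lay farther out than Dixon's 95% limit, which chance alone gives in about 1 in 20. The mean of log2(TPM + 0.5) over the 40 genes was far below its group in HO_TASTPM mouse 452 of 8 months (4.64) and in TAU mouse 1809 of 2 months (4.35). Both stand apart by their region score and have labels in doubt. It was far above its group in TAS10 mouse 2154 of 18 months (5.49) and far below in wild-type mouse 2152 of 18 months (5.22). Grm3 was far above its group at 28.5 TPM in wild-type mouse 1462 of 8 months, which stands apart. Nlgn1 was far below its group at 11.7 TPM in HO_TASTPM mouse 452 and far above at 23.7 TPM in wild-type mouse 1472 of 8 months.

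A further 21 differences between groups passed a test of the difference itself in limma. The difference from wild-type mice changed between 18 and 2 months in HO_TASTPM mice for Grm5 (-0.93) and Nlgn1 (-0.72). In TAU mice it changed for Gria3 (-0.67), Grin1 (-0.89), Grik1 (-0.98), Grm3 (-1.001), Grm8 (-1.33) and Nlgn2 (-0.70). HO_TASTPM differed from HET_TASTPM mice at 8 months in Gria2 (-0.68), Gria3 (-0.57), Grin3a (-0.73) and Grik1 (-0.74), and at 18 months in Gria1 (-1.06), Gria2 (-0.75) and Dlg1 (0.68). TAU differed from HO_TASTPM mice at 18 months in Grin1 (-0.70), Grik3 (-0.98), Grm4 (-1.64), Grm8 (-1.44), Homer2 (-1.09) and Nlgn2 (-0.79). All are log2 differences. Each of these calls, except that of Grm3 in the TAU change, ended in at least 1 fit that left out a mouse, and Grik1 of the TAU change passed in 10 of 21 such fits.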

How the results depend on the processing

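Counts are of the 40 genes called, and the causes of these shifts were not tested. The share of all genes called was taken in the main fit only. Counts under the alternatives, here and above, thus have no such share beside them and may shift along with those of all genes. Without the libraries that stand apart, HO_TASTPM mice had 1, 0 and 16 calls at 2, 4 and 18 months, HET_TASTPM mice 1, 4 and 2 at 4, 8 and 18 months, TAU mice 0 and 5 at 4 and 8 months, and wild-type mice 2 between 18 and 2 months. There HO_TASTPM against HET_TASTPM mice gave 4 and 13 at 2 and 18 months, TAU against HO_TASTPM mice 22, and the changes from 2 to 18 months 13 in HO_TASTPM and 24 in TAU mice. With the region score as a covariate, HO_TASTPM mice had 1, 1 and 2 calls at 2, 4 and 18 months, HET_TASTPM mice 1 and 4 at 8 and 18 months, TAU mice 0 and 0 at 4 and 8 months, HO_TASTPM against HET_TASTPM mice 9 at 8 months, TAU against HO_TASTPM mice 14, and the changes 4 in HO_TASTPM and 13 in TAU mice. With both together, a setting chosen after seeing the data, HO_TASTPM mice had 2, 0, 2 and 9 calls at the 4 ages, HET_TASTPM mice 1, 2 and 6 at 4, 8 and 18 months, TAU mice 0 at 4 months, wild-type mice 4 between 18 and 2 months, HO_TASTPM against HET_TASTPM mice 4 at 2 months, TAU against HO_TASTPM mice 20, and the changes 14 in HO_TASTPM, 2 in HET_TASTPM and 30 in TAU mice. With lane as a covariate the counts were 12, 0 and 15 in HO_TASTPM, HET_TASTPM and TAU mice of 18 months, 0 and 9 for HO_TASTPM against HET_TASTPM mice at 8 and 18 months and 0 for the HO_TASTPM change. With only the wild-type mice of lane number 3, also chosen after seeing the data, HO_TASTPM mice of 18 months had 6.

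In fits of only the groups compared, HO_TASTPM mice had 2 and 14 calls at 8 and 18 months, HET_TASTPM mice 3, 1 and 7 at 4, 8 and 18 months, TAU mice 2 and 0 at 4 and 8 months, HO_TASTPM against HET_TASTPM mice 1 and 7 at 8 and 18 months, TAU against HO_TASTPM mice 0, and the changes 7 in HO_TASTPM and 2 in TAU mice. Quantile normalization gave 9 in HO_TASTPM mice of 18 months, 1 and 4 in HET_TASTPM mice of 8 and 18 months, 1 in TAU mice of 8 months and 5 for HO_TASTPM against HET_TASTPM mice at 18 months. Without a filter HO_TASTPM mice had 3 and 2 at 8 and 18 months, and with a filter at a mean log2 TPM of 1.5 HET_TASTPM mice had 3 and 2 at those ages. The median over the 40 genes in place of their mean gave -0.37 for HO_TASTPM minus wild-type mice of 18 months.

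Leaving out 1 mouse at a time gave 0 to 4 calls in HO_TASTPM, 1 to 2 in HET_TASTPM and 3 to 29 in TAU mice of 18 months, 1 to 5 in HO_TASTPM, 0 to 3 in HET_TASTPM and 0 to 3 in TAU mice of 8 months, 2 to 22 in HO_TASTPM and 0 to 20 in TAU mice of 4 months, 0 to 1 in TAU mice of 2 months and 0 to 1 in wild-type mice between 18 and 2 months. It gave 0 to 3, 0 to 6 and 0 to 3 for HO_TASTPM against HET_TASTPM mice at 4, 8 and 18 months, 1 to 13 for TAU against HO_TASTPM mice, and 0 to 2 and 2 to 12 for the HO_TASTPM and TAU changes. The mean over the 40 genes, relative to wild-type, ranged over -0.99 to -0.46 in TAU, -0.29 to -0.20 in HO_TASTPM, -0.14 to -0.08 in HET_TASTPM and -0.077 to -0.0029 in TAS10 mice of 18 months and -0.18 to 0.031 in HO_TASTPM mice of 8 months.

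Of 914 values of called genes under an alternative other than leaving out 1 mouse, 716 kept their direction and call. A further 172 kept their direction without the call, and 26 turned direction, all at 4 months. The fits that left out 1 mouse were counted apart. In them 0 values turned direction, and the calls they ended are not in these counts. With the region score as a covariate, log2 differences turned to 0.19 for Gria1, 0.20 for Grik4, 0.012 for Cacng8, 0.20 for Homer3 and 0.042 for Camk2b in HO_TASTPM mice, and to 0.027 for Cacng8 and 0.0201 for Camk2b in TAU mice. With the libraries that stand apart also left out they were 0.15 for Gria1, 0.033 for Gria2, 0.16 for Grin2a, 0.11 for Grik4, 0.25 for Cacng8, 0.0078 for Dlg3, 0.11 for Dlgap1, 0.29 for Homer3 and 0.28 for Camk2b in HO_TASTPM mice, and 0.17 for Gria1, -0.022 for Gria4, 0.13 for Grin2b, 0.0223 for Grik2, 0.12 for Grm5, 0.19 for Cnih2, 0.27 for Cacng8, 0.38 for Homer3 and 0.15 for Camk2b in TAU mice. Leaving out those libraries alone turned Dlgap1 to 0.0044 in HO_TASTPM mice. No paired analysis was possible because the labels give each mouse its own number and no number ties mice of different groups together. The depth of each library is unknown, so the limits of detection of low genes such as Grm8 were not set.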
